A study of Homo sapiens with 2 samples.

Results

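The NF-κB subunits are encoded by 5 genes of the NF-κB/Rel family, NFKB1, NFKB2, REL, RELA and RELB, and binding of p52 around these genes was examined. The genes were taken as a family, whatever their signal, although the family was chosen with earlier results of these data known. Every p52 summit within 100 kb of a gene body was used. This gave 12 of the 3474 summits in the series, 7 of 2007 in replicate 1 and 5 of 1467 in replicate 2. The data came from chromatin immunoprecipitation followed by sequencing (ChIP-seq) with an antibody named by its target, NFKB2, in MDA-MB-231 cells, an established triple-negative breast cancer line. All cells were starved for 8 h and then received 10 ng/ml TWEAK, the cytokine ligand of the receptor Fn14, for 48 h with fresh cytokine after 24 h. There was 1 group of 2 replicates. Libraries without TWEAK, with control IgG or of input chromatin were not analysed here, and the values below are therefore levels under TWEAK, not responses to it.

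All 5 proteins share the Rel homology domain, through which NF-κB subunits dimerise and contact DNA at κB sites. NFKB1 and NFKB2 encode the precursors p105 and p100, whose processed forms p50 and p52 bind DNA but lack a transactivation domain, whereas REL (c-Rel), RELA (p65) and RELB carry one. In the non-canonical pathway, receptors such as Fn14 stabilise the kinase NIK, p100 is processed to p52, and p52 acts mainly as a dimer with RelB. Several NF-κB subunit genes are known NF-κB targets themselves.

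NFKB2, RELB and REL each had a p52 summit at a start site in both replicates, and NFKB1 and RELA had none at a start site in either. By the strongest start-site summit of each gene, NFKB2, the gene of p52 itself, came first. RELB, the usual partner of p52, came next, and REL was last. The sequences that carry these summits are shown first, on hg38, 5′ to 3′ along the strand on which the gene is transcribed. Capitals mark every match to the κB consensus, which has 10 bases and was searched on both strands. Stretches in untranslated exons are limited to the site and its flanks.
NFKB2 first exon, chr10:102394462-102394490, plus strand: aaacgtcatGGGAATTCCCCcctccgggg
NFKB2 first exon, chr10:102394490-102394519, plus strand: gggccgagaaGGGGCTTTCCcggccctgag
NFKB2 intron, chr10:102395519-102395548, plus strand: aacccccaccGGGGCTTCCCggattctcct
NFKB2 second promoter, chr10:102395674-102395703, plus strand: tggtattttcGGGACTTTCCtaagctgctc
RELB promoter, chr19:45001313-45001434, plus strand: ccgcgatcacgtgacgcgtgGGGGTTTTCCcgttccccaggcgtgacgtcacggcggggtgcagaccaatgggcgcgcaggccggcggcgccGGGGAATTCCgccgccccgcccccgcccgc
REL first exon, chr2:60881518-60881546, plus strand: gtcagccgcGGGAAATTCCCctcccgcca
RELA past its 3′ end, chr11:65652913-65652942, minus strand: cagcgtctggGGAAAATCCCcgccgaggcc
NFKB1 before its first start site, chr4:102501300-102501329, plus strand, a κB match with no summit: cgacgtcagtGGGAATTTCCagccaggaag

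Summits within 100 kb of the gene body were found for 4 of the 5 genes in replicate 1 and for 3 in replicate 2, where 25% and 16.8% of 20033 protein-coding genes had one (14.2% in both). The mean was 3.5 ± 0.707 genes (SD, n = 2). Summits within 1 kb of an annotated start site were found for NFKB2, RELB and REL in each replicate, where 1.93% of protein-coding genes had one in replicate 1, 0.973% in replicate 2 and 0.764% in both. At these 3 genes the other replicate had its summit no more than 200 bp away, which held for 0.709% of protein-coding genes in each list and 0.704% in both. Each gene had at least 1 such shared summit with a κB match within 100 bp, which held for 0.499% and 0.489% in replicates 1 and 2. Not every shared summit of NFKB2 had a match, as described below. Counted by summit, 5 of 7 in replicate 1 and 5 of 5 in replicate 2 were shared within 200 bp, and 47.4% and 69.8% of all summits on chromosomes 1 to 22, X and Y were. These shares are given for scale, and no test was run on 5 genes.

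Each summit carries a value taken as −log10 of its q-value, which depends on the depth of the library and is used here as a value and as a rank within its own list. NFKB2 (chromosome 10, 102394110 to 102402524, plus strand) had 3 summits in each replicate, and no other subunit gene had more than 1 in both. The strongest was at 102394474 in replicate 1, with −log10 q of 149 and rank 15 of 2007, and at 102394499 in replicate 2, with −log10 q of 70.0 and rank 43 of 1467. These positions lay 25 bp apart, in the untranslated first exon of transcripts that start at 102394110, and 29 bp and 4 bp before another start site at 102394503. They were outside the exons of the canonical transcript. Among summits on chromosomes 1 to 22, X and Y alone, the ranks were 10 and 21.

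A second pair of NFKB2 summits lay in an intron just before a further cluster of start sites. In replicate 1 it was at 102395644, 49 bp before the start site at 102395693, where −log10 q was 20.4 and the rank 531. In replicate 2 it was at 102395537, 156 bp before it, where −log10 q was 2.89 and the rank 1293, in the lowest part of the list. These summits were 107 bp apart and each had its own κB match within 100 bp, so they count as shared only because 200 bp was allowed.

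The last pair lay at 102399346 in replicate 1, in the coding sequence of exon 13 of the canonical transcript, and at 102399252 in replicate 2, 94 bp away and outside that exon. Their −log10 q was 9.02 and 4.96, at ranks 1106 and 1130, and neither had a κB match within 200 bp. This was the one shared site of the family without a κB match, and it counts as near a start site only through a retained-intron transcript that starts at 102399332. Summits in exons of protein-coding genes made up 26.1% and 19.6% of the lists on chromosomes 1 to 22, X and Y. Of these, 18.9% had a κB match within 100 bp in replicate 1 and 24.2% in replicate 2, against 52% and 57.3% of all summits. The window of the replicate 2 summit was also the only one of the 12 that was not single-copy throughout, with 125 of its 171 sequences of 31 bases occurring once in the reference. The 3 NFKB2 summits had consecutive peak numbers in each list, 774 to 776 and 873 to 875, and were therefore called as separate peaks.

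RELB (chromosome 19, 45001461 to 45038192, plus strand) had 1 summit in each list, at 45001344 and 45001351, upstream of every annotated start site of the gene. Replicate 1 gave −log10 q of 36.2 at rank 247, and replicate 2 gave 23.3 at rank 262. The summits were 7 bp apart and 117 and 110 bp before the nearest start site. The position in the list was alike in both, within the top 12.3% and 17.9%.

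REL (chromosome 2, 60881491 to 60931612, plus strand) also had 1 summit in each list, at 60881532 and 60881542, 11 and 21 bp past a start site. That summit lay within an untranslated first exon, outside the exons of the canonical transcript. Its −log10 q was 12.8 at rank 838 in replicate 1 and 3.68 at rank 1224 in replicate 2. It therefore stood in the upper part of one list and in the lower part of the other, with 41.8% of summits at or above it in replicate 1 and 83.4% in replicate 2. A start site of REL-DT, a transcript divergent from REL, lay within 1 kb of both summits, so distance alone does not assign them to REL.

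**Figure D1:**
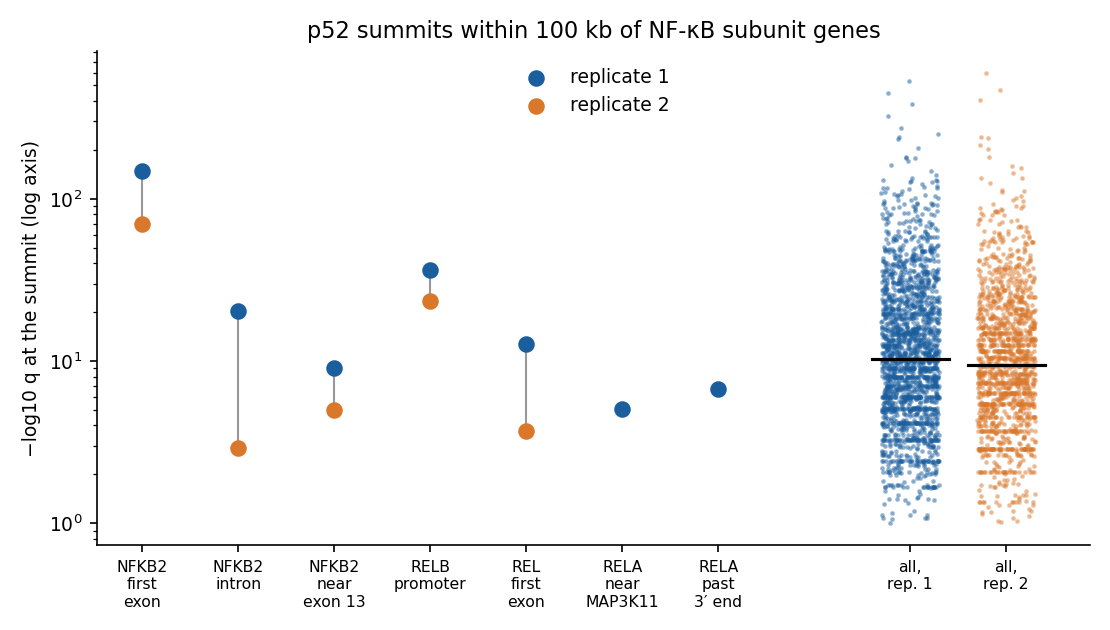
The −log10 q (log axis) at each of the 12 summits near the subunit genes is plotted by site, with blue points for replicate 1, orange points for replicate 2 and a grey line joining the replicates. All summits of each list are on the right, with black bars at the medians of 10.3 and 9.47. NFKB2 at its first exon (149 and 70.0) stood above RELB (36.2 and 23.3), and RELB above REL (12.8 and 3.68).

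By the strongest start-site summit of each gene, the order NFKB2, RELB, REL was the same in both replicates, and the values of genes next to each other in this order did not overlap. RELA had no start-site summit and is left out of this order. The mean −log10 q was 109 ± 55.7 at the NFKB2 first exon, 29.8 ± 9.10 at RELB and 8.24 ± 6.45 at REL (SD, n = 2 for each). No test of this order was run on the 2 libraries. The NFKB2 pairs at the intron and near exon 13 had means of 11.7 ± 12.4 and 6.99 ± 2.87, below RELB. All 5 shared pairs had the higher value in replicate 1, by ratios of 1.55 at RELB to 7.07 at the intron of NFKB2. Over the series 75.3% of 990 shared summits were higher in replicate 1, with a median ratio of 1.58, so a lower value in replicate 2 was common and its part in these differences was not tested.

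RELA (chromosome 11, 65653599 to 65663090, minus strand) had no summit in the gene. Replicate 1 listed 2 summits in its window. One was at 65652834, 765 bp past the 3′ end of the gene, with −log10 q of 6.72 and rank 1353. The other was at 65613265, with −log10 q of 5.03 and rank 1552, in an exon of MAP3K11 and within 1 kb of a start site of that gene, which encodes a kinase of the MAPK pathways, and 40334 bp from RELA. Neither was found in replicate 2, whose nearest summit to RELA was 149 kb from the gene body. Both stood in the weaker part of the list.

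NFKB1 (chromosome 4, 102501330 to 102617302, plus strand), the longest of the 5 genes at 116 kb, had no summit within 100 kb in either replicate. The nearest summit was 180 kb from the gene body in replicate 1, at 102796908 with −log10 q of 6.80, and 925 kb away in replicate 2, at 101576272 with −log10 q of 9.39. Read depth was unknown, so NFKB1 and the start sites of RELA had no binding detected at these depths and thresholds, which is not the same as unbound.

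Whether peaks near these genes had been called and then removed was examined from the peak names, which carry running numbers along each sequence. The lists lack 2203 of the numbers up to 4210 in replicate 1 and 3265 of those up to 4732 in replicate 2, and the study's methods describe removal of blacklisted regions. The 5 widest gaps held 67.8% and 64.1% of the missing numbers. Between the listed summits that flank each of the 5 gene windows, 0 numbers were missing in both lists. For NFKB1 the flanking summits were consecutive, numbers 2665 and 2666 in replicate 1 and 2907 and 2908 in replicate 2. No numbered peak had therefore been taken out between those summits, over spans of 1.22 and 3.49 Mb.

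κB matches were then compared across the 12 summits. In replicate 1, 5 of the 7 summits had a match no more than 100 bp away, and in replicate 2, 4 of the 5 had one, a mean of 4.5 ± 0.707 (SD, n = 2), beside the 52% and 57.3% over all summits given above. Among shared summits at protein-coding start sites, 68.1% and 66.7% had one. An AP-1 site (TGACTCA or TGAGTCA, either strand) lay within 100 bp of 0 of the 12, where 7.93% and 7.67% of all summits had one. The strongest NFKB2 summit and the RELB summit each had 2 κB matches that did not overlap, in both replicates, and 9.15% of summits in replicate 1 and 10.9% in replicate 2 had as many.

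At the NFKB2 first exon the matches GGGAATTCCC (102394471 to 102394480) and, on the minus strand, GGGGAATTCC (102394472 to 102394481) overlap as a run of 11 bases, and GGGGCTTTCC (102394500 to 102394509) starts 28 bp after the second of them. The summit of replicate 1 was 1.5 bp from the centre of GGGAATTCCC and that of replicate 2 was 5.5 bp from the centre of GGGGCTTTCC. The nearest match thus differed between the replicates. All 3 matches lay within 50 bp of each summit, so the summits do not tell which match was bound. In the intron the summit of replicate 1 was 44.5 bp from GGGACTTTCC and that of replicate 2 was 3.5 bp from GGGGCTTCCC. The nearest match again differed, which does not show that different matches were bound.

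At RELB the upstream match GGGGTTTTCC (45001333 to 45001342) was centred 6.5 and 13.5 bp from the summits, and GGGGAATTCC (45001405 to 45001414) lay 72 bp further along. The centre of GGGGAATTCC was 65.5 and 58.5 bp from the summits. At REL the overlapping matches GGGAAATTCC (60881527 to 60881536) and GGGAATTTCC on the minus strand (60881528 to 60881537) were centred 0.5 and 9.5 bp from the summits. The summit past RELA was 93.5 bp from its match GGGATTTTCC, the widest distance of the family. This match and GGGGAATTCC at RELB were lost when matches were sought within 50 bp.

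**Figure D2:**
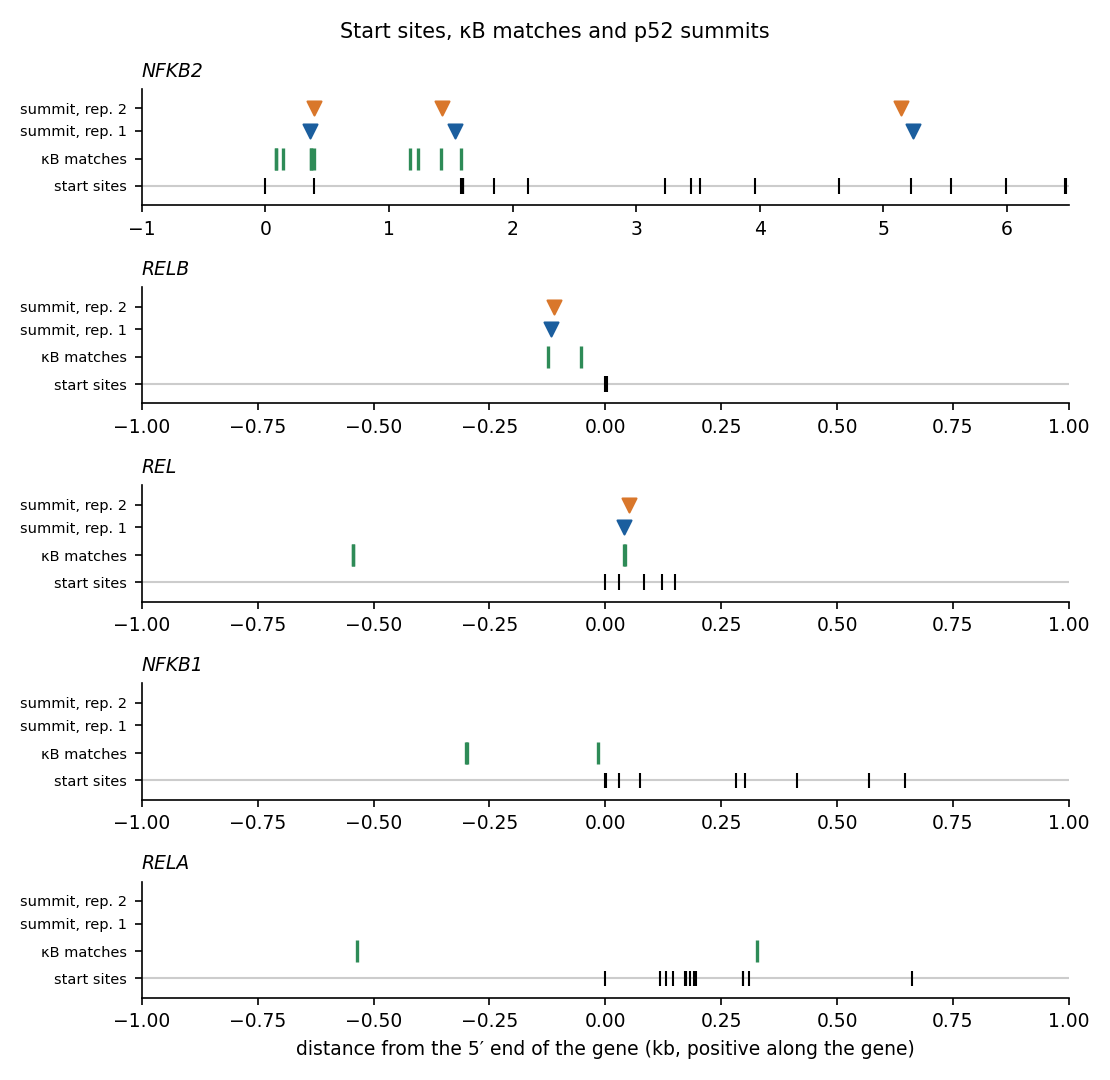
Annotated start sites (black), κB matches (green) and summits of replicate 1 (blue) and replicate 2 (orange) are drawn against distance from the 5′ end of each gene, in kb along the gene. Summits sit at or near κB matches at RELB, REL and the first 2 sites of NFKB2, and not at the site of NFKB2 near exon 13, while NFKB1 and RELA have matches near their start sites and no summit in view. Only the region around the 5′ end is drawn, further along the gene for NFKB2. RELB has 9 matches near its start sites, and those further into the gene, without a summit, are out of view.

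The reverse comparison started from κB matches and asked how many had a summit within 100 bp. Within 1 kb of a start site there were 10 matches at NFKB2, 9 at RELB, 4 at REL and 3 each at NFKB1 and RELA. A summit lay at 4 of those at NFKB2, 2 at RELB and 2 at REL in each replicate, and at 0 for NFKB1 and RELA. At NFKB2 the 4 were not the same in both lists, since GGGACTTTCC had a summit in replicate 1 only and GGGGCTTCCC in replicate 2 only. Over all protein-coding start sites, 0.865% of 42293 matches had a summit in replicate 1 and 0.534% in replicate 2.

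The κB consensus stands for 100 different sequences of 10 bases, counting each with its reverse complement, and these differ in how often their copies in the genome coincide with a summit. GGGGAATTCC, found at both NFKB2 and RELB, had the highest share of the 100 in both lists. Of its 4394 copies on chromosomes 1 to 22, X and Y, 5.05% had a summit in replicate 1 and 4.35% in replicate 2. GGGAATTCCC at NFKB2 came second in both, with 4.36% and 3.69% of 4309 copies. The median over the 100 sequences was 0.0722% and 0.0574%. Matches that overlap, as at NFKB2, share their summits, so these counts are not independent.

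The other 7 sequences had lower shares, and their order was not that of the −log10 q of the sites. GGGAATTTCC at REL was at place 5 in both lists with 1.44% and 1.05% of 6754 copies, and GGGAAATTCC, which overlaps it, had 1.37% and 0.950% of 6736 copies. GGGGCTTTCC at the first exon of NFKB2, the strongest site, stood below both with 0.973% and 0.655% of 5652 copies. GGGACTTTCC at the NFKB2 intron had 1.35% and 0.839% of 4884 copies. GGGGTTTTCC at RELB had 0.680% and 0.476% of 5884 copies, and GGGGCTTCCC at the NFKB2 intron 0.404% and 0.130% of 7669 copies. GGGATTTTCC past RELA had 0.138% and 0.110% of 7271 copies. All 9 sequences at these summits were above the median in both lists. They were picked because a summit lay at them, and that summit counts in their shares. A place above the low median was therefore largely set by the choice.

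NFKB1 carries the same GGGAATTTCC that lies under the REL summit, at 102501310 to 102501319, centred 15.5 bp before the most upstream start site, and had no summit there. Near protein-coding start sites, 21 of 300 copies of this sequence (7%) had a summit in replicate 1 and 8 (2.67%) in replicate 2, so a copy without one was the common case. RELA had other sequences near its start sites, GGGGCGCTCC, GGGGGCTCCC and GGGGGCCTCC, and on the same basis, near protein-coding start sites, at most 0.415% of the copies of any of them had a summit in either list.

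**Figure D3:**
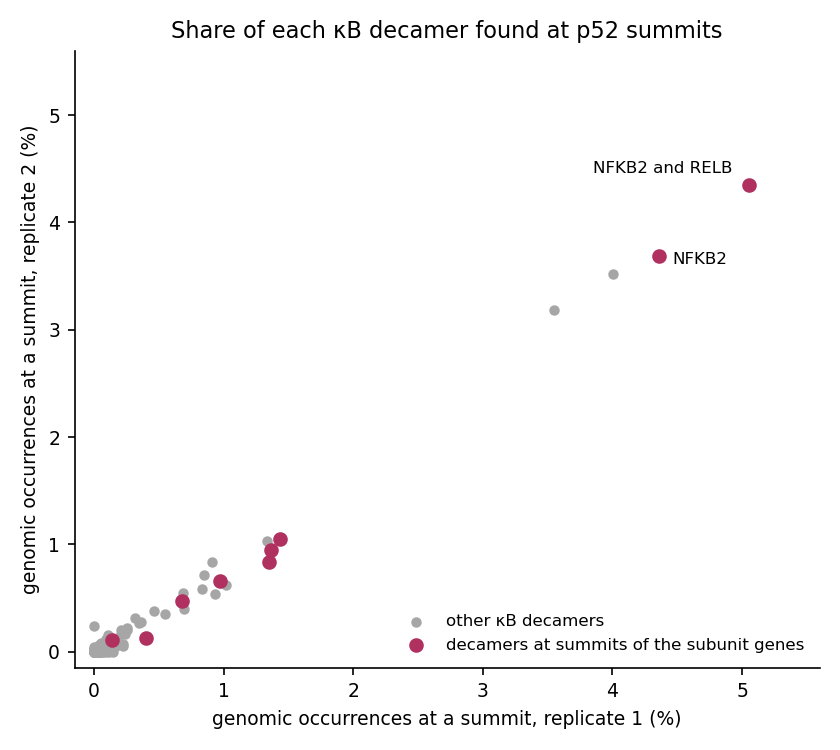
Each point is one of the 100 sequences of the κB consensus, placed by the percentage of its genomic copies with a summit within 100 bp in replicate 1 (horizontal) and replicate 2 (vertical), with the 9 sequences at summits of the subunit genes in red. The sequence shared by NFKB2 and RELB has the highest share in both replicates (5.05% and 4.35%).

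The subunit genes were placed among all genes with a shared summit at a protein-coding start site, of which there were 141, by the mean rank of their best such summit over the 2 lists. NFKB2 was 2nd, with a mean rank of 29. The genes on either side were ACTB, encoding β-actin (mean rank 21), GOLGA3, encoding a Golgi protein (37.5), and GPBP1 (42.5). RELB was 20th with a mean rank of 254.5, next to PRDM8 (251.5) and NPAS4 (240.5) above it and FAM111A (258) and TRAF1 (273) below. REL was 112th with a mean rank of 1031, between SNAPC4 (1004) and IGFBP6 (1020.5) above and NACA2 (1070) and TIMM13 (1099) below. TRAF1, a TRAF adaptor and a known NF-κB target, was the one gene of the pathway list among these neighbours. Of the 11, GOLGA3, NPAS4 and NACA2 had no κB match within 100 bp of any shared summit at a start site.

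**Figure D4:**
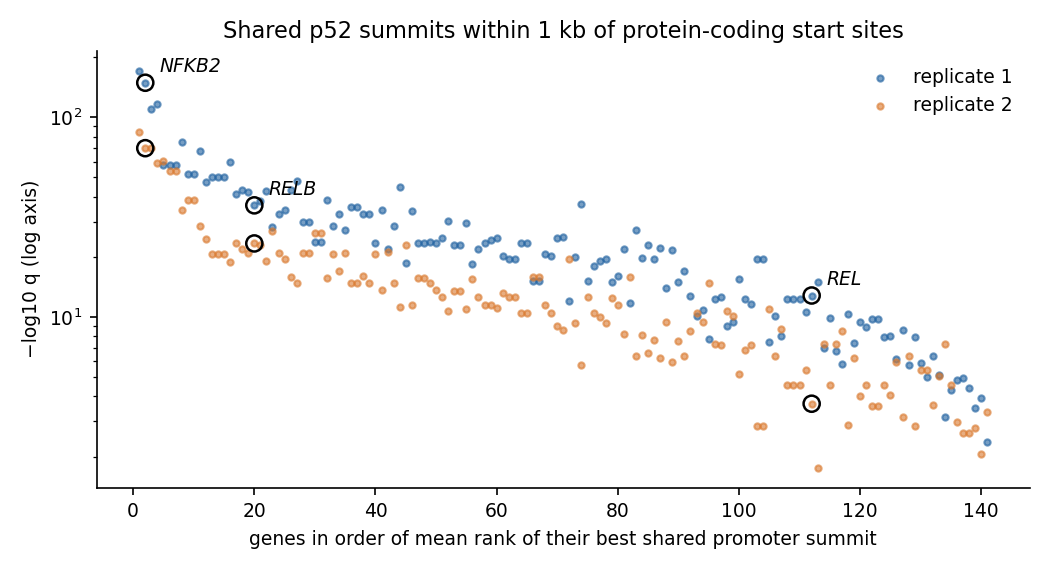
The −log10 q (log axis) of the best shared summit within 1 kb of a start site is plotted for 141 protein-coding genes in order of mean rank, in blue for replicate 1 and orange for replicate 2. Circles mark NFKB2 (2nd), RELB (20th) and REL (112th).

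Other genes of the pathway gave the setting. Of 26 genes, a promoter summit was listed for 6 in replicate 1 and 5 in replicate 2, beside 1.93% and 0.973% of protein-coding genes. Within 100 kb the counts were 12 and 11, beside 25% and 16.8%. The IκB family, which holds NF-κB dimers in the cytoplasm or acts with them in the nucleus, had such promoter summits at 3 of 6 genes in both replicates. These were NFKBIA, encoding IκBα (−log10 q 22.2 and 6.21), NFKBIB, encoding IκBβ (ranks 466 and 533), and BCL3, a nuclear partner of p50 and p52 (21.8 and 12.6). Another protein-coding gene had the same values as NFKBIB at its best shared promoter summit in both lists, so distance alone may not assign that summit to NFKBIB.

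Among the adaptors, TRAF1 had one in both (42.5 and 19.0). Among the feedback genes TNIP1, which encodes a partner of A20, had one in both (57.8 and 60.5), and TNFAIP3, which encodes A20 and is named after its values were seen, had one in replicate 1 only. None of the 7 genes of kinases and their partners had a summit at a start site in either list, among them MAP3K14 (NIK) and CHUK (IKKα), nor did the ligand gene TNFSF12 or the receptor gene TNFRSF12A. TNIP1 was above RELB in both replicates, and TRAF1 in replicate 1 only, while all 5 were below the strongest NFKB2 summit.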

How the data were processed

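p52 ChIP-seq was analysed in 2 libraries of 1 group, grouped by their titles. According to the study's methods and the submitters' processing notes, the authors trimmed reads with Trimmomatic, aligned them to hg38 (Bowtie2), used MACS2 for peak calling after input subtraction and removed blacklisted regions. Versions and the q-value threshold are not given in the sources used here, and the methods describe ChIP-seq replicates of cell lines as biological. The deposited lists hold 1-bp summits with a value that was read as −log10 of the q-value from the layout alone, since there is no header. The lowest listed values were 1.00 in replicate 1 and 1.02 in replicate 2. Replicates were called separately. Read depth is unknown.

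Summits were matched to GENCODE release 44 and the hg38 reference, in which 0 summits lay past a sequence end. Coordinates are 1-based. Summits within 200 bp were called shared. κB matches (3 G, a purine, 2 bases of any kind, 2 pyrimidines, 2 C) had to lie wholly within 100 bp. Promoter means within 1 kb of an annotated start site, and protein-coding genes are those of chromosomes 1 to 22, X and Y. Values are descriptions without tests. Functions were tested on simulated data. Calculations used Python 3.11.15, numpy 2.4.6, pandas 2.3.3, pysam 0.24.0 and matplotlib 3.10.9.

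Members, the pathway list and settings were chosen with earlier results of these data known. Named were all members, genes with a start site within 1 kb of their summits, pathway genes with a promoter summit in both replicates and the 2 genes on either side by mean rank.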

Additional observations from a re-analysis of the deposited data

How the results depend on the processing

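No paired analysis was possible because the labels give 1 group. Of 39 alternative values, 36 stayed within 1.5 times the main count or within the replicate spread. The values with 1 replicate left out are among these 36 and fall within that spread by construction, as there were only 2 replicates. They therefore add nothing to this check. The mean number of shared summits per replicate, 5, was 3 when only summits within 50 bp counted, since the intron and exon 13 pairs of NFKB2 lie 107 and 94 bp apart. It was 2 in the stronger 50% of each list, where the NFKB2 first exon and RELB are left. The mean number of summits with a κB match, 4.5, was 2.5 when summits in protein-coding exons were left out, a setting chosen after seeing the data, since the first exons of NFKB2 and REL are removed. The number of genes with a promoter summit was 3 under every distance and start-site setting and 2.5 in the stronger 50%, where REL is lost in replicate 2. With 1 replicate left out, genes with a summit within 100 kb ranged from 3 to 4 and pathway genes with a promoter summit from 5 to 6. Unknown depth limits what absent summits show.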

Other observations

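The peak names show how much of each called set the lists hold, a point chosen after the data were seen. Numbers up to 4210 in replicate 1 and 4732 in replicate 2 occur, for 2007 and 1467 listed summits, so replicate 2 had the higher last number and the shorter list. Missing numbers fell into 84 gaps in replicate 1 and 89 in replicate 2. None of these gaps fell in the intervals around the 5 subunit genes, as described above.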
